A study of Mus musculus with 6 samples.

Results

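Schwann cells are the glia of peripheral nerves, and the 8 genes described here (Sox10, Erbb3, Gfra3, Mbp, Pmp22, S100b, Fabp7 and Cdh19) mark these cells at different stages. They were chosen by symbol as a list of Schwann cell and glial genes and matched to the identifiers of the count table through the GENCODE M21 annotation, and all 8 of them had a row among the 23508 genes of the table. The RNA came from 6 tumors of 4T1, a carcinoma line from the mammary gland of a mouse that serves as a triple-negative breast cancer model. The with-peak group holds 3 tumors taken on the day when neural activity, recorded in tumors, first peaked, and the before-peak group holds 3 tumors taken ahead of that day. The labels give no other treatment, genotype, host strain, tumor age or pooling for either group. The day of collection and the peak therefore cannot be told apart, and nothing states that the tumors came from separate animals. P-values then measure the spread between these samples, which may be partly technical.

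As background, Schwann cells arise from the neural crest under the transcription factor SOX10 and survive and divide on axonal neuregulin, which they read through the ERBB3 receptor paired with ERBB2. Those that wrap large axons make myelin, whose peripheral form is rich in PMP22 and MBP, while others hold bundles of thin axons, as in sympathetic nerves, and keep the low-affinity neurotrophin receptor NGFR. After injury they return to a repair state and produce growth factors for axons. Several of these genes are also used outside nerves. ERBB3 is made by mammary epithelium, PMP22 by fibroblasts and many other cells, SOX10 by some mammary cells and melanocytes, and transcripts of the Mbp locus that start upstream (Golli-Mbp) by blood cells.

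Of the 8 genes, 6 passed the filter on low counts and were tested, and Cdh19 and Gfra3 did not pass it. None of the 6 was called different between with-peak and before-peak tumors by the edgeR quasi-likelihood test, which does not show equal levels. The test used Benjamini-Hochberg adjustment over all genes. At an adjusted p under 0.05, 0 of the 6 were called by edgeR and 0 by DESeq2, beside 0% of the 16755 genes tested by edgeR and 1.51% of the 17534 genes with an adjusted p in DESeq2 (1.38% higher and 0.131% lower). At an unadjusted p under 0.05 edgeR also took 0 of the 6, where 9.5% of all genes were taken (1025 higher and 567 lower, or 768 higher and 1020 lower with scaling by library size alone), and for 0 of the 6 did the groups separate without overlap, against 15.5% of all genes. The log2 fold change of with-peak over before-peak tumors was above 0 for 3 of the 6 and below 0 for the other 3, with a median of -0.10 against -0.02 over all genes tested, of which 47.7% were above 0. In bulk tumor RNA, fewer cells of a type and less RNA per cell cannot be told apart.

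The libraries held 10591067 to 14549357 counts, so that 1 count was worth 0.0701 to 0.0970 CPM, CPM being counts scaled to library size with TMM factors. Levels in the text are CPM on this scale unless they are given per kilobase of merged exons. Of the libraries, with-peak replicate 2 stood out by its fibroblast genes, whose summed level was 18318 CPM against 7455 to 12436 CPM in the other 5, and before-peak replicate 3 by its B and T cell genes, at 503 CPM against 29.6 to 109 CPM in the others. With-peak replicates 2 and 3 were high in skeletal muscle genes, with sums of 1696 and 1771 CPM against 73.9 to 320 CPM elsewhere, and in erythroid genes, with sums of 1457 and 2154 CPM against 137 to 277 CPM elsewhere. The 2 mitochondrial rRNA genes summed to 603 to 667 CPM with peak, against 311 to 442 CPM before it, and both were called by DESeq2 and neither by edgeR. The part of these differences in the members' values was not tested. For the tested members, fold changes without single libraries are given where 1 library moves them.

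Sox10, the transcription factor that sets glial and melanocyte identity in the neural crest (chromosome 15, 79154908 to 79165240, minus strand), was detected in every library. It was at 3.79, 5.64 and 3.69 CPM across with-peak replicates 1, 2 and 3, against 3.05, 6.11 and 8.42 CPM across before-peak replicates 1, 2 and 3. The lowest and the highest library both belonged to the before-peak group, so that all 3 with-peak tumors lay inside the before-peak range. The group means were 4.37 ± 1.1 CPM with peak and 5.86 ± 2.69 CPM before it (SD, n = 3 each). The log2 fold change was -0.42 (SE 0.40, 95% interval -1.31 to 0.48, in edgeR adjusted p = 0.778), an interval that reaches from 0.402-fold to 1.39-fold. Before-peak replicate 3, the library rich in B and T cell genes, carried most of the difference, and without it the log2 fold change was -0.07. The part of that library's makeup in the Sox10 value was not tested.

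The 2 receptors of the list were counted very unequally. Erbb3, the neuregulin receptor that lacks strong kinase activity of its own (chromosome 10, 128567523 to 128589652, minus strand), was among the better counted genes, with 241 to 547 counts in with-peak libraries and 361 to 534 counts in before-peak libraries. It stood at 38.4, 25.1 and 23.4 CPM across with-peak replicates 1, 2 and 3, against 29.0, 41.8 and 37.2 CPM across before-peak replicates 1, 2 and 3. With-peak replicates 2 and 3 lay below all 3 before-peak tumors and with-peak replicate 1 lay within their range. The log2 fold change was -0.31 (SE 0.22, 95% interval -0.80 to 0.18, in edgeR adjusted p = 0.703), and it was -0.56 without with-peak replicate 1. Carcinoma epithelial genes, of which 14 of 17 tested were negative, had summed levels of 3916, 3252 and 4739 CPM across with-peak replicates 1, 2 and 3, against 4701, 5117 and 3910 CPM across before-peak replicates 1, 2 and 3. Their part in the Erbb3 value was not tested.

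Gfra3, the coreceptor that binds artemin for the RET kinase and is made by sensory and sympathetic neurons and by Schwann cell precursors (chromosome 18), was barely counted. It had 0, 6 and 2 counts in with-peak replicates 1, 2 and 3, against 2, 0 and 1 counts in before-peak replicates 1, 2 and 3. Of the 11 counts in all, 6 came from with-peak replicate 2. A library with 0 counts allows a level of up to 0.210 CPM in with-peak replicate 1 and up to 0.235 CPM in before-peak replicate 2 (3 counts each), so a difference between groups was not detectable at this depth.

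The myelin genes of the list were Mbp and Pmp22. Mbp, which encodes the myelin basic protein that compacts the cytoplasmic faces of the sheath (chromosome 18), was at 35.1, 25.2 and 25.9 CPM across with-peak replicates 1, 2 and 3, against 22.5, 25.8 and 35.8 CPM across before-peak replicates 1, 2 and 3. Each group had 1 library near 35 CPM and 2 between 22 and 26 CPM. Its means were 28.7 ± 5.50 CPM with peak and 28.0 ± 6.96 CPM before it (SD, n = 3 each), and the log2 fold change of 0.04 had the narrowest interval of the 6 tested genes, -0.43 to 0.51 (SE 0.21, in edgeR adjusted p = 0.970). With 2128 counts over the 6 libraries, changes beyond 0.741-fold or 1.42-fold lie outside that interval. The direction of so small a value depends on the scaling and on single libraries, and with library size alone it was -0.02. The annotation lists 16 transcripts at this locus, and the gene-level counts do not separate myelin transcripts from Golli-Mbp.

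Pmp22, a tetraspan protein of compact myelin whose dosage matters for inherited neuropathy (chromosome 11, 63128982 to 63159547, plus strand), had the highest level per length of the 8 genes. It was at 39.3, 75.9 and 44.4 CPM across with-peak replicates 1, 2 and 3, against 36.6, 26.7 and 44.2 CPM across before-peak replicates 1, 2 and 3. With-peak replicate 2 stood far above the rest, while with-peak replicate 1 lay below before-peak replicate 3. The log2 fold change was 0.57 (SE 0.29, 95% interval -0.10 to 1.24, in edgeR adjusted p = 0.592). Without with-peak replicate 2 it was 0.22, and without with-peak replicate 1 it was 0.76 with an unadjusted edgeR p of 0.0391 and an adjusted p of 0.489. The fibroblast, endothelial and adipocyte sums were all highest in with-peak replicate 2, at 18318, 664 and 3214 CPM, against 9245 to 11067, 296 to 445 and 999 to 1699 CPM in the other with-peak libraries and 7455 to 12436, 329 to 448 and 963 to 2264 CPM in before-peak libraries. All 14 fibroblast genes and all 10 endothelial genes had their highest level there. Their part in the Pmp22 value was not tested.

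The glial markers S100b, Fabp7 and Cdh19 rested on few counts. S100b, the calcium-binding protein used to stain Schwann cells and astrocytes (chromosome 10, 76253853 to 76261159, plus strand), had 6, 10 and 14 counts in with-peak replicates 1, 2 and 3, against 14, 12 and 11 counts in before-peak replicates 1, 2 and 3. The before-peak values, 0.917 to 1.12 CPM, lay within the with-peak range of 0.421 to 1.36 CPM. Its log2 fold change was -0.24 (SE 0.59, 95% interval -1.57 to 1.08, in edgeR adjusted p = 0.920), so that differences from 0.338-fold to 2.12-fold were not resolved. The value turned to 0.10 without with-peak replicate 1.

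Fabp7, the brain lipid-binding protein of Schwann cell precursors and satellite glia (chromosome 10, 57784881 to 57788450, plus strand), had the largest fold change of the 6 tested genes. It had 24, 10 and 11 counts in with-peak replicates 1, 2 and 3, against 2, 2 and 10 counts in before-peak replicates 1, 2 and 3. On the CPM scale these were 1.68, 0.783 and 1.07 with peak, against 0.161, 0.157 and 0.833 before it. Before-peak replicates 1 and 2 were thus below all others, and before-peak replicate 3 lay just above the lowest with-peak library, which left the groups overlapping by that one pair. The log2 fold change was 1.61 (SE 0.76, 95% interval -0.10 to 3.32, in edgeR adjusted p = 0.546, unadjusted p = 0.0615). Without before-peak replicate 3 it was 2.82 (in edgeR adjusted p = 0.282, unadjusted p = 0.00937), and without with-peak replicate 1 it was 1.26 (in edgeR unadjusted p = 0.203). Without before-peak replicate 1 or 2 it was 1.25 or 1.24 (in edgeR unadjusted p = 0.184 and 0.176). On all 6 libraries limma-voom gave 1.88 with an unadjusted p of 0.0360 and an adjusted p of 0.459, and DESeq2 gave 1.63 with an unadjusted p of 0.0883.

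Cdh19, the cadherin regarded as one of the most Schwann-restricted surface genes (chromosome 1, 110888326 to 110977584, minus strand), had no counts in 4 of the 6 libraries. It had 0, 9 and 0 counts in with-peak replicates 1, 2 and 3, against 0, 0 and 4 counts in before-peak replicates 1, 2 and 3. Both groups thus had 1 library with a few counts and 2 with none. Counts of 0 allow levels of up to 0.210 and 0.291 CPM in with-peak replicates 1 and 3 and up to 0.241 and 0.235 CPM in before-peak replicates 1 and 2 (3 counts each, for counting error only).

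**Figure D1:**
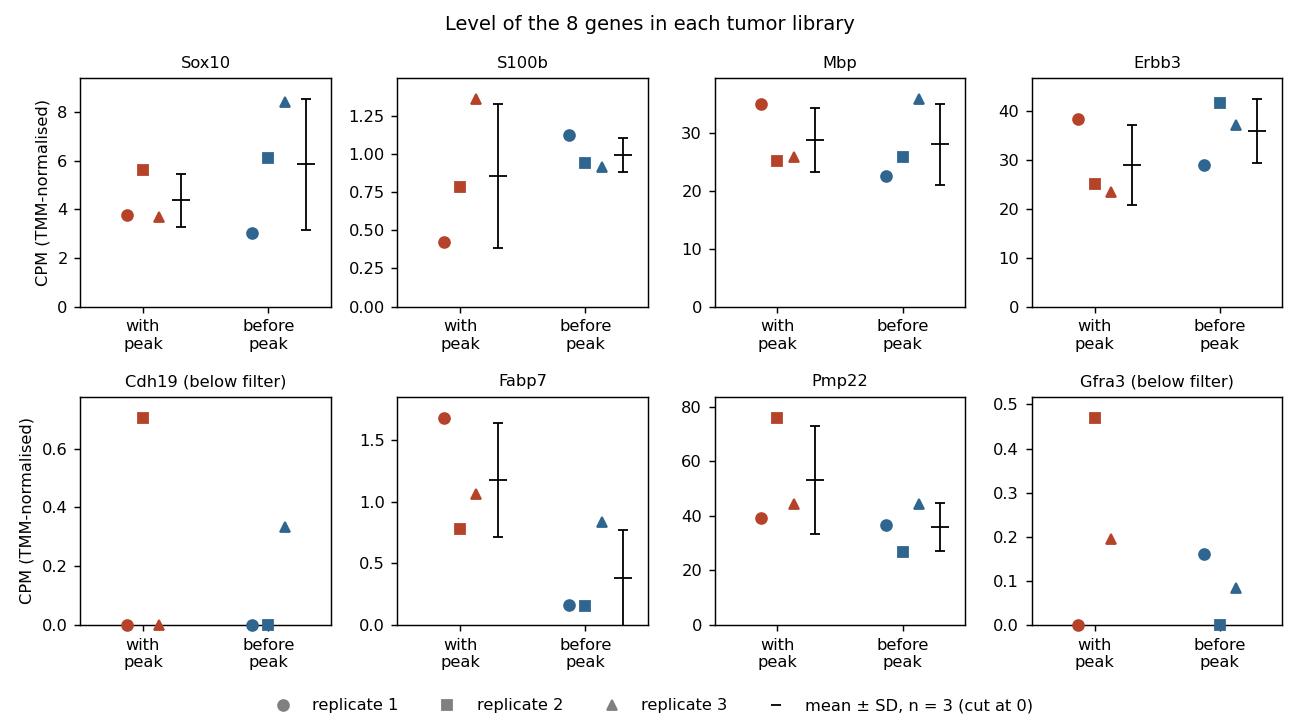
TMM-normalised level (CPM, linear axis from 0, own scale per gene) of each of the 8 genes in the 6 libraries, with-peak tumors at the left and before-peak tumors at the right of each panel; shapes mark replicate numbers, and bars give the mean ± SD of 3 tumors for the tested genes, cut at 0. The groups overlap in all 6 tested genes, and Cdh19 and Gfra3 have 0 counts in 4 and 2 of the 6 libraries.

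Fabp7 and S100b lie on the same chromosome, each has a single RefSeq start, and they had like total counts (59 and 67) but fold changes of opposite sign, so their upstream regions are shown. RefSeq windows were also given for 4 starts of Pmp22, which gene-level counts cannot tell apart. The stretches end before the first annotated base of the transcript and are written 5′ to 3′ on the plus strand of GRCm38.p6, with capitals marking the letters CCAAT or their reverse complement ATTGG, the CCAAT box known from many promoters.
Fabp7, chr10:57784673-57784880: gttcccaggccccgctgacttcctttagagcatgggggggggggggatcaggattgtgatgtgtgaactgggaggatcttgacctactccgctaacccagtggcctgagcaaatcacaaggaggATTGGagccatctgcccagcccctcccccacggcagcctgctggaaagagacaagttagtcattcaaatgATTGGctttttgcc
S100b, chr10:76253586-76253835: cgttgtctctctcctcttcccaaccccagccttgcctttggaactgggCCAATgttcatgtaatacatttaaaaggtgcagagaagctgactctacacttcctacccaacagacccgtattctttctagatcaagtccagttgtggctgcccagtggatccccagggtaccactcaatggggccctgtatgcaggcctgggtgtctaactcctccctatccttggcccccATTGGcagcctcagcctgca
Each stretch held 2 such words, and at least 1 such word was present in 29.6% and 33.8% of all 32851 RefSeq windows cut to 208 and 250 bases. The SOX core words ACAAAG and ACAATG, neither of which contains CCAAT, were searched on both strands and found in neither stretch, and at least 1 of them was present in 22.0% and 25.2% of all windows of those lengths. A word is a description of the letters and no evidence of binding.

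Levels were compared between genes per kilobase of merged exons, together with 3 other genes that define Schwann cells. Averaged over the 6 libraries, Pmp22 was at 18.9 CPM per kb, Erbb3 at 5.40, Mbp at 3.35, Scn7a at 2.06 and Sox10 at 1.68 CPM per kb. Ngfr at 1.6 CPM per kb followed, and then Fabp7 at 0.625 and S100b at 0.622 CPM per kb. Gfra3, Foxd3 and Cdh19 were at 0.0758, 0.0613 and 0.0404 CPM per kb. The ranges over the 6 libraries did not overlap between Pmp22 and Erbb3 or between S100b and Gfra3, whereas those of each other pair of neighbours in this order did. On this scale Pmp22 was 5.64 times as high as Mbp, and Erbb3 was 3.22 times as high as Sox10. Sox10, Erbb3, Mbp and Pmp22 were counted in every library, but these are genes also used outside nerves. S100b and Fabp7 were counted in every library too, with 67 and 59 counts in all. Foxd3, Gfra3 and Cdh19, the last regarded as among the most Schwann-restricted, were at or near 0. These levels thus do not settle whether the label of the list fits the tumors. The marker genes do not show in which cells these transcripts lay.

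**Figure D2:**
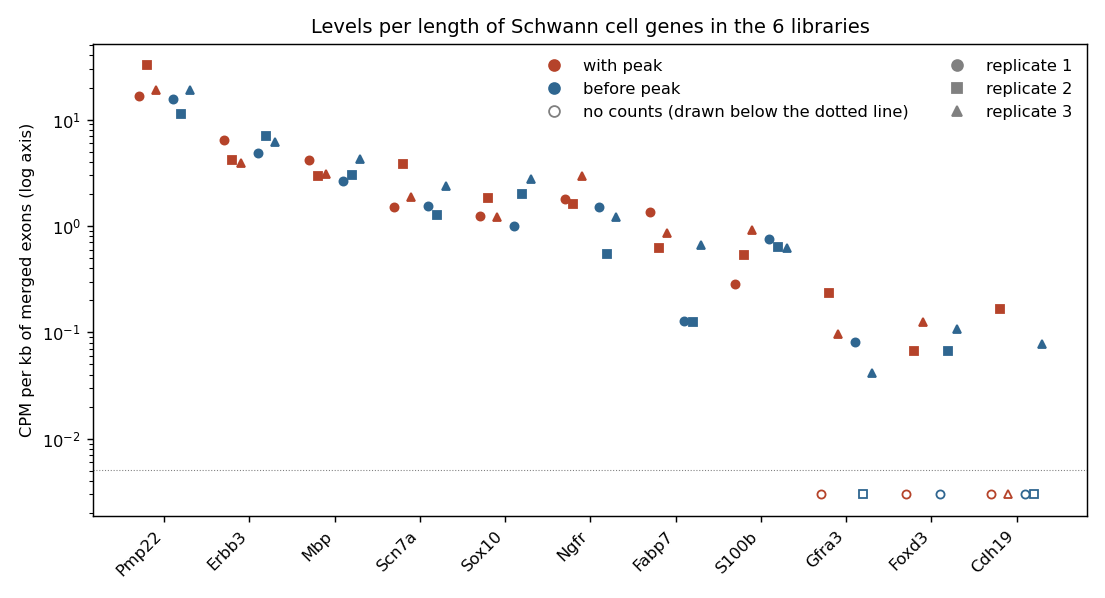
Level per kilobase of merged exons (CPM per kb, log axis) of the 8 genes and of Scn7a, Ngfr and Foxd3 in with-peak (left of each pair) and before-peak libraries, ordered by the mean over all 6; open symbols under the dotted line are libraries with no counts. Pmp22 lies above all others at 11.3 to 32.2 CPM per kb, and only Gfra3, Foxd3 and Cdh19 have libraries at 0.

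Other genes of peripheral myelin did not pass either. Of 18 genes of this list, 15 had a row and 10 were tested, of which 4 had a positive and 6 a negative log2 fold change, with a median of -0.17 against -0.02 over all genes. None of the 10 was called by edgeR or DESeq2, and 0 had an unadjusted edgeR p under 0.05. Egr2, the transcription factor of myelination that macrophages also use, had a log2 fold change of -0.42 (SE 0.21, in edgeR adjusted p = 0.577). Arhgef10, a guanine nucleotide exchange factor linked to slowed nerve conduction in people, had a log2 fold change of 0.62 (SE 0.30). It overlaps an antisense gene, and in libraries without strand the reads of both cannot be told apart.

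Among genes of immature, non-myelinating or repair Schwann cells, 16 of 20 had a row and 12 were tested, 6 positive and 6 negative, with a median of -0.09. None was called by edgeR or DESeq2, and 2 were higher and 1 lower at an unadjusted edgeR p under 0.05, where 6.12% and 3.38% of all genes were. Ngfr, the low-affinity neurotrophin receptor of non-myelinating and repair cells, was at 6.17, 5.56 and 10.2 CPM across with-peak replicates 1, 2 and 3, against 5.22, 1.88 and 4.17 CPM across before-peak replicates 1, 2 and 3. Every with-peak tumor lay above every before-peak tumor, as was so for 8.13% of all genes, though with-peak replicate 2 exceeded before-peak replicate 1 by little. Its log2 fold change was 0.96 (SE 0.41, in edgeR adjusted p = 0.519, unadjusted p = 0.0453). Tfap2a, the AP-2 alpha factor of neural crest and epithelium, was at 59.4, 40.2 and 44.8 CPM with peak, against 69.4, 75.5 and 66.0 CPM before it, with a log2 fold change of -0.55 (SE 0.16, in edgeR adjusted p = 0.343). It overlaps antisense genes and is not restricted to nerve. Scn7a, the sodium channel of non-myelinating Schwann cells, was like Pmp22 highest in with-peak replicate 2, at 10.9, 28.1 and 13.8 CPM across with-peak replicates 1, 2 and 3, against 11.3, 9.24 and 17.4 CPM across before-peak replicates 1, 2 and 3 (log2 fold change 0.48, SE 0.39). Gap43, a growth-cone protein that repair cells also make, was below the filter, with 30 counts in the 3 with-peak libraries together and 10 in the 3 before-peak libraries.

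Ligands and partners of the ERBB receptors gave no calls by edgeR. Nrg1, the axonal neuregulin, was at 6.59, 9.32 and 7.66 CPM across with-peak replicates 1, 2 and 3, against 6.50, 7.28 and 11 CPM across before-peak replicates 1, 2 and 3, a log2 fold change of -0.07 (SE 0.28, in edgeR adjusted p = 0.954). Erbb2, the partner kinase of ERBB3, was at 60.0, 45.5 and 51.1 CPM with peak, against 71.1, 66.3 and 58.2 CPM before it (log2 fold change -0.32, SE 0.14, in edgeR adjusted p = 0.519). Erbb2 overlaps Mien1 and Nrg1 a noncoding gene on the opposite strand. Of the 13 tested genes among neuregulins, EGF-like ligands and ErbB receptors, 5 were positive and 8 negative, with a median of -0.07, and edgeR called 0. At an unadjusted edgeR p under 0.05, 0 were higher and 3 lower (Tgfa, Areg and Erbb2), where 6.12% and 3.38% of all genes were.

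The EGF receptor ligands Tgfa and Areg, which do not bind ERBB3, were lower in every with-peak tumor, as were 7.38% of all genes. Tgfa was at 104, 80.8 and 104 CPM across with-peak replicates 1, 2 and 3, against 158, 164 and 137 CPM across before-peak replicates 1, 2 and 3 (log2 fold change -0.67, SE 0.13, in edgeR adjusted p = 0.157). Areg was at 22.9, 28.8 and 19.2 CPM with peak, against 50.2, 32 and 44.7 CPM before it (log2 fold change -0.84, SE 0.21, in edgeR adjusted p = 0.259). Neither passed the edgeR threshold, while DESeq2 called both. Egfr itself had a log2 fold change of 0.24 (SE 0.30). Tgfa overlaps an unconfirmed transcript on the opposite strand.

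Artemin and its receptors, the partners of Gfra3, were present at low levels. Artn was at 10.7, 6.11 and 9.60 CPM across with-peak replicates 1, 2 and 3, against 12.7, 6.89 and 7.42 CPM across before-peak replicates 1, 2 and 3 (log2 fold change -0.03, SE 0.32, in edgeR adjusted p = 0.986). Ret, the signalling kinase of this receptor family, was at 1.82, 14.7 and 7.18 CPM with peak, against 4.33, 3.76 and 6.50 CPM before it (log2 fold change 0.70, SE 0.66). With-peak replicate 2 was the highest library for Ret as it was for Gfra3. Of the 10 genes of the GDNF family list other than Gfra3, 9 had a row and 6 were tested, 2 positive and 4 negative, with a median of -0.03, and 0 had an unadjusted edgeR p under 0.05 or were called by DESeq2.

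Genes known as direct targets of SOX10 did not share a direction. The list held Erbb3, Mbp and Pmp22 of the members and the melanocyte gene Mitf among others. Of its 10 tested genes 6 were positive and 4 negative, with a median of 0.19. Mitf, the transcription factor of melanocytes that is also made by macrophages and osteoclasts, was at 16, 21.9 and 18.9 CPM across with-peak replicates 1, 2 and 3, against 8.67, 9.47 and 7.58 CPM across before-peak replicates 1, 2 and 3. All 3 with-peak tumors were above all 3 before-peak tumors, as was so for 8.13% of all genes (log2 fold change 1.14, SE 0.21, in edgeR adjusted p = 0.118). Ednrb, the endothelin receptor of neural crest and endothelium, was at 45.8, 136 and 103 CPM with peak, against 35.2, 27.2 and 50.2 CPM before it (log2 fold change 1.34, SE 0.44, in edgeR adjusted p = 0.457). Neither passed by edgeR, and DESeq2 called both. Of 11 listed melanocyte genes 5 had a row, and the pigment genes Mlana, Tyr, Tyrp1 and Dct were not among these 5. The 4 tested were 2 positive and 2 negative, and the pigment gene Pmel had a log2 fold change of -0.50 (SE 0.33). Pmel overlaps exons of Cdk2 and Dgka on the opposite strand, and without strand its reads cannot be told from theirs. Macrophage genes had summed levels of 2871 to 4062 CPM with peak, against 1914 to 2284 CPM before it, with all 14 tested genes positive, and their part in the Mitf value was not tested.

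**Figure D3:**
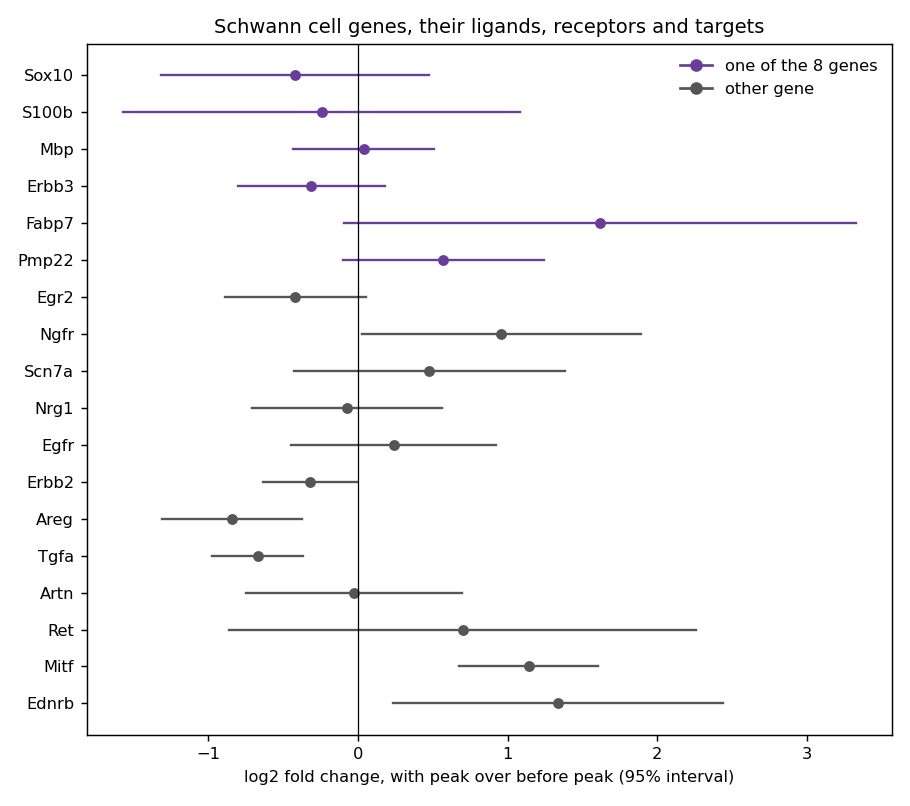
Log2 fold change of with-peak over before-peak tumors (horizontal axis) with its 95% interval for the 6 tested genes of the list (purple) and for 12 genes of myelin, repair cells, ligands, receptors and SOX10 targets (grey). The intervals of all 6 purple genes include 0, from the narrow one of Mbp at -0.43 to 0.51 to the wide one of Fabp7 at -0.10 to 3.32.

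Of the related families, the fatty acid binding proteins had 3 tested genes other than Fabp7, all with a positive log2 fold change, as Fabp7 had, and 1 of the 3 had an unadjusted edgeR p under 0.05. Over all genes tested, 6.12% were higher at that threshold. Fabp3 of muscle and heart had a log2 fold change of 2.78 (SE 0.96, in edgeR adjusted p = 0.437) with 0.912, 7.52 and 5.63 CPM across with-peak replicates 1, 2 and 3, against 1.52, 0.235 and 0.250 CPM across before-peak replicates 1, 2 and 3. Its high libraries were the 2 that were high in skeletal muscle genes, in which Fabp7 was not highest. DESeq2 called it, and it overlaps Zcchc17 on the opposite strand. Fabp4, the fatty acid binding protein of adipocytes, differed by a log2 of 0.56 (SE 0.51), and Fabp5 by 0.01 (SE 0.15). Of 11 tested genes of the S100 list, which includes the receptor gene Ager, 6 were positive and 5 negative with a median of 0.24, among them S100a1 at 0.45 (SE 0.17) and S100a16 at 0.52 (SE 0.22), each with an unadjusted edgeR p under 0.05. Of the PMP22 relatives, Emp3 had 0.45 (SE 0.25), Emp2 -0.26 (SE 0.16) and Emp1 0.08 (SE 0.11). Among 10 tested Sox factors 6 were positive and 4 negative, and Sox9, the relative of SOX10 in epithelium and mesenchyme, had -0.44 (SE 0.21). None of these S100, PMP22-related or Sox genes passed by edgeR or DESeq2.

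**Figure D4:**
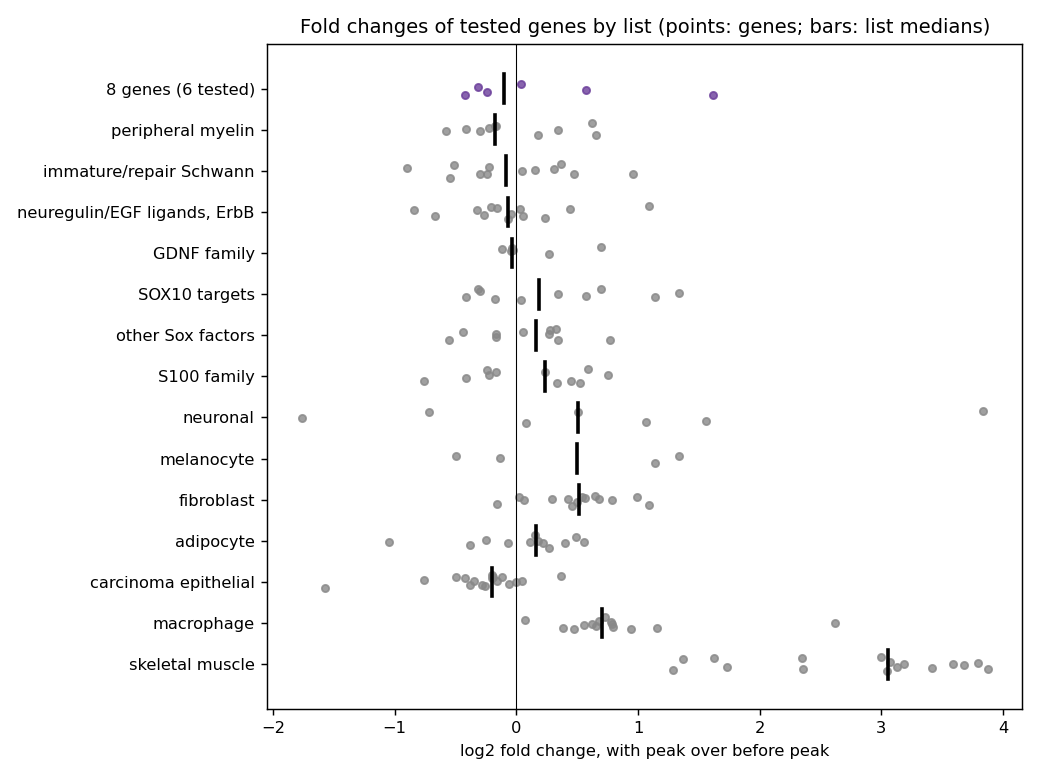
Log2 fold change of with-peak over before-peak tumors for every tested gene (points) of 15 gene lists, with the list medians as black bars. The 6 tested genes of the list straddle 0 with a median of -0.10, as do the peripheral myelin (-0.17) and immature or repair Schwann (-0.09) lists, while the macrophage and skeletal muscle medians are 0.70 and 3.06.

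The neuronal genes that Schwann cells accompany were at low levels. Of 24 listed, 17 had a row and 7 were tested, 5 positive and 2 negative, with a median of 0.51, and 0 were called by edgeR and 1, Chga, by DESeq2. Tubb3, the neuronal tubulin, was at 2.38, 4.15 and 3.49 CPM across with-peak replicates 1, 2 and 3, against 2.01, 1.25 and 1.5 CPM across before-peak replicates 1, 2 and 3 (log2 fold change 1.07, SE 0.41, in edgeR adjusted p = 0.471). All 3 with-peak tumors were above all 3 before-peak tumors for Tubb3, Mapt and Chga, as was so for 8.13% of all genes tested. These were also the 3 of the 7 with an unadjusted edgeR p under 0.05, where 6.12% of all genes were higher. None of the 6 tested members separated in either direction, against 15.5% of all genes. The 2 negative neuronal genes, whose groups overlapped, were Slc6a2 (log2 fold change -1.76, SE 0.80, in edgeR adjusted p = 0.531) and Phox2a (-0.72, SE 0.48). Phox2a overlaps exons of Inppl1 on the opposite strand, and without strand the reads of both cannot be told apart. Slc6a2 was at 4.82 CPM in before-peak replicate 1 and at 0.392 to 0.917 CPM elsewhere. The neuronal median was 0.17 without with-peak replicate 2, 0.08 with no filter on low counts and 1.07 with a filter of 1 CPM, and the last 2 settings changed which genes were tested. The members' log2 fold changes were positive for Fabp7, Pmp22 and Mbp and negative for Sox10, S100b and Erbb3, and whether the glial and neuronal differences differ from each other was not tested. Astrocyte and oligodendrocyte genes had 5 tested members, 3 positive and 2 negative, with a median of 0.02, and perineurial and endoneurial genes had 9, 3 positive and 6 negative, with a median of -0.41. None of these was called by edgeR or DESeq2. At an unadjusted edgeR p under 0.05, 0 were higher and 1 lower (Gja1) of the astrocyte and oligodendrocyte list. Of the perineurial list 1 was higher (Osr2) and 2 were lower (Itgb4 and Moxd1), where 6.12% and 3.38% of all genes were. Mean levels with and before peak were 569 and 696 CPM for Gja1 and 258 and 363 CPM for Itgb4, but 1.62 and 1.52 CPM for Cldn1 of the perineurial list. Carcinoma epithelial genes were negative for 14 of 17 tested, and their part in these values was not tested.

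The 8 genes peaked in different libraries. Their highest library was with-peak replicate 2 for Pmp22, Cdh19 and Gfra3, before-peak replicate 3 for Sox10 and Mbp, with-peak replicate 1 for Fabp7, with-peak replicate 3 for S100b and before-peak replicate 2 for Erbb3. With-peak replicate 2, singled out after its values were seen, was the highest library for 21.3% of all genes tested. It was highest for 5 of the 10 tested peripheral myelin genes and for 4 of 6 tested genes of the GDNF family. Of the 12 tested immature or repair Schwann genes it was highest for 2, and of the 6 tested members for 1. The same library was highest in fibroblast, endothelial and adipocyte sums, and the part of these in the values was not tested. On the log2 CPM scale the SD over the 6 libraries was 0.28 for Mbp, 0.35 for Erbb3, 0.47 for S100b, 0.49 for Pmp22, 0.53 for Sox10 and 1.05 for Fabp7. The SD of Fabp7 exceeded that of 96.2% of all genes tested, and that of Mbp exceeded 51.2% of them.

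Genes whose centred log2 CPM lay closest to a member over the 6 libraries, by root mean square difference, were Epha4 (0.13), Ints6l (0.15) and Peg10 (0.16) for Sox10, where the median over all genes was 0.55. For Pmp22 they were Tcn2 (0.06), Rcn3 (0.07) and Cbr3 (0.07), with a median of 0.52. Mbp had Tmem243, Zc3h12a and Cyth1, at 0.06, 0.06 and 0.07 with a median of 0.36. Erbb3 had Gm10461, 1700060J05Rik and Gm12898, each at 0.09 with a median of 0.40. S100b had Gm44771, Celf5 and Dtd2 at 0.13, 0.14 and 0.15 with a median of 0.51. Fabp7 had the least close neighbours, Hcn4, Cd177 and Hmox1, at 0.26, 0.34 and 0.34 with a median of 0.99. No member of the list was among the 3 closest genes of another. With only 3 places among so many genes, this absence does not show whether the members vary together. With 6 libraries and 16755 genes, close neighbours are found for most patterns.

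**Figure D5:**
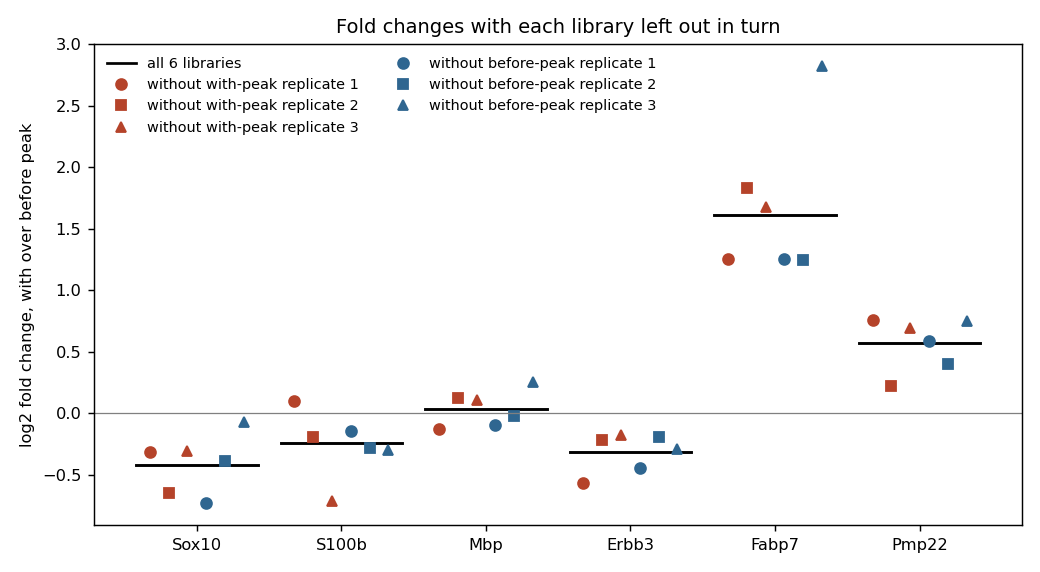
Log2 fold change of with-peak over before-peak tumors of the 6 tested genes with all 6 libraries (black lines) and with each library left out in turn (red symbols for with-peak, blue for before-peak libraries). Fabp7 stays between 1.24 and 2.82 and Pmp22 between 0.22 and 0.76, Sox10 and Erbb3 stay below 0, and S100b and Mbp take both signs.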

How the data were processed

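Bulk RNA was sequenced in 3 with-peak and 3 before-peak tumors. Per the labels' protocols, tissue was snap-frozen, RNA was isolated with Trizol, and oligo(dT)-selected RNA went into unstranded paired-end libraries. The authors deposited 1 table of unnormalised whole-number counts, with a column per tumor. The submitters' processing notes name STAR and FastQC, with mm10 as the build. For the read counter and its annotation, nothing is given in the sources used here. Of 23508 identifiers, 23479 matched GENCODE M21 (GRCm38), which gave symbols, coordinates and merged exon lengths. Counts were tested with edgeR 4.0.16 in R 4.3.3 (TMM, filterByExpr at its count minimum of 10, total of 15, robust quasi-likelihood fit, two-sided, no covariate, Benjamini-Hochberg adjustment over 16755 genes, threshold 0.05). The SE is the size of the log2 fold change divided by the square root of F, and 95% intervals use its t distribution. Log2 CPM used a prior count of 2. The fit was tested on simulated data. Between replicates of a group, chi-square per degree of freedom was 17.1 to 28.9, far above sampling noise. Within a group, no library was thus a repeat sequencing of another. Libraries of different groups were not compared in this way. The measure cannot exclude that libraries came from pieces of the same tumor. Floors of 3 counts cover counting error only.

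The members and the 25 gene lists were chosen with earlier results of these data known. All 8 members are named, as are a short fixed set and, from each list, the tested genes with the smallest p-values or the highest levels, except some genes that are not reported here. Gap43, Slc6a2 and Phox2a were chosen after their values were seen. S100b overlaps Dip2a and Mbp overlaps a ribosomal pseudogene on the opposite strand, in introns only. Upstream sequences are from RefSeq (GRCm38.p6), which had windows for 3 of the 8 genes. Alternatives were RLE, library size alone, upper quartile scaling, other filters, DESeq2 1.42.0, limma-voom (limma 3.58.1) with and without sample weights, a block on the replicate number, and fits without each library in turn.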

Additional observations from a re-analysis of the deposited data

How the results depend on the processing

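No member passed an adjusted p of 0.05 under any of the 15 alternatives that could test it. The count of members at an unadjusted p under 0.05 was 1 with DESeq2 (Pmp22) and 1 with limma-voom with or without sample weights (Fabp7), and 0 to 2 when 1 library was left out. It was 2 without with-peak replicate 1 (Erbb3 and Pmp22) and 2 without before-peak replicate 3 (Fabp7 and Pmp22). Fabp7 and S100b did not pass the filter of at least 1 CPM in 3 libraries. With library size alone the value of Mbp turned to -0.0218. With 1 library left out, the log2 fold change ran from -0.73 to -0.07 for Sox10, -0.56 to -0.18 for Erbb3, -0.13 to 0.25 for Mbp, 0.22 to 0.76 for Pmp22, -0.72 to 0.10 for S100b and 1.24 to 2.82 for Fabp7. Over all genes, the calls were 242 higher and 23 lower by DESeq2, 26 higher and 3 lower with no low-count filter, and 1 higher and 0 lower with the replicate block. Fits that left out 1 library called 0 to 17 higher and 0 lower: 17 when it was before-peak replicate 2, 13 for before-peak replicate 3 and 9 for with-peak replicate 1. The cause was not tested. Deviations of libraries with the same replicate number correlated at -0.06, -0.10 and 0.03. No pairing by number was thus seen over all genes, though a small shared factor would not show this way. The block called 0 members. Over the same genes, the median of the 6 tested members changed sign under 1 of 11 alternatives (0.09 without before-peak replicate 3). Under 12 alternatives, those of the immature or repair, GDNF family and SOX10 target lists changed sign under 2, 3 and 2, and that of peripheral myelin genes under 0. With no filter on low counts, Cdh19 and Gfra3 joined the tested members at log2 fold changes of 1.05 and 1.34. The median of the members was then 0.30. Depth limits S100b, Fabp7, Cdh19 and Gfra3, which had 67, 59, 13 and 11 counts in all.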
